A study of Homo sapiens with 6 samples.

Results

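The genes of the replicative DNA polymerases, of primase and of DNA ligase 1 were followed in HCT116 cells exposed to oxaliplatin. The 10 genes POLA1, POLA2, PRIM1, PRIM2, POLD1, POLD2, POLD3, POLE, POLE2 and LIG1 were chosen by their symbols among the 27942 genes of the count table, and all 10 passed the filter on low counts. HCT116 is an established human colon carcinoma line with wild-type p53, and oxaliplatin is a platinum compound that forms DNA adducts. Polyadenylated RNA was sequenced from 3 libraries of untreated cells (NT) and 3 of cells kept for 24 h in 0.5 µM oxaliplatin (OXA), with the same line and medium in both groups. Neither the labels nor the methods say whether libraries of a group came from separate cultures or whether NT cells received the solvent, so the p-values measure the spread between these libraries.

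DNA polymerase alpha and primase form a complex that lays down a short RNA and DNA primer on each new strand. Polymerase delta, held by the sliding clamp PCNA, then extends the Okazaki fragments of the lagging strand, polymerase epsilon travels with the helicase on the leading strand, and ligase 1 seals the nicks left between processed fragments. Many genes of this machinery are transcribed at the boundary of G1 and S phase under E2F factors. In bulk RNA, fewer cells in S phase and less mRNA in each cell cannot be told apart.

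Library totals lay between 32979521 and 40967880 counts. The p53 target CDKN1A rose from 5143 ± 907 normalized counts (mean ± SD, n = 3) in NT to 39110 ± 2895 in OXA (log2 fold change 2.93, adjusted p = 0.000445 by edgeR). All 5 epithelial markers examined were present, with summed raw counts of 75499 to 107852 in NT and 116181 to 146175 in OXA. The 8 markers of leukocytes, fibroblasts and endothelium together held 133 to 296 counts in NT and 208 to 273 in OXA, most of them from COL1A1, and DCN was at 0 in every library. NT library 1 stood apart from the other NT libraries by base composition. Across 13675 genes, the log2 ratio of its normalized count to the mean of NT libraries 2 and 3 fell with the GC content of the transcript (Spearman correlation across genes -0.77, given as a description, since genes are not independent and share these 3 libraries). Its median was 0.23 for transcripts of up to 40% GC and -0.92 for those over 60% GC. OXA library 1 deviated from its group mean along with NT library 1 (correlation 0.55 across genes). It had the lowest OXA value of POLD1, POLE and LIG1, though not of POLD2, and its relation to GC content was not examined. Values without NT library 1 are given beside the results that it moved most. They keep OXA library 1, so they are not free of a shift that both libraries may share.

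Both subunits of polymerase alpha, the catalytic subunit of primase and the accessory subunit POLD3 fell. In the same fit no fall was called for PRIM2, POLD1, POLD2, POLE, POLE2 or LIG1. Of the 10 genes, 4 were lower in OXA at an edgeR adjusted p under 0.05 (POLA1, POLA2, PRIM1 and POLD3) and 0 were higher, while 2.29% of the 13727 genes tested were called lower and 2.78% higher. The estimates of all 4 were beyond 1.5-fold, and 1.44% of all genes tested were both called lower and beyond 1.5-fold. Without NT library 1 the log2 fold changes of POLA1 (-0.51) and POLD3 (-0.52) lay within 1.5-fold, as they did with trends on GC content and transcript length removed (-0.54 and -0.57), and those of POLA2 (-0.88) and PRIM1 (-0.68) stayed beyond it. In 7 of the 10 every OXA library lay below every NT library, a separation seen in 14.4% of all genes. The median log2 fold change of the 10 was -0.47, and that of all genes tested was 0.023. When the edgeR fit took the replicate number as a block, 7 of the 10 were lower and 0 higher, the 3 added being PRIM2, POLE and POLE2, beside 10.9% of all genes called lower in that fit.

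The count of 4 depended on which library was left out. Without NT library 1 it was 5, with POLE added, beside 4.11% of genes called lower. Without NT library 2 it was 3, with POLD3 lost, beside 146 of 13856 genes called lower. It was 0 without NT library 3, OXA library 1, OXA library 2 or OXA library 3, fits in which between 19 and 69 of all genes tested were called lower. In all 6 of these fits POLA1, POLA2, PRIM1, PRIM2, POLD3, POLE and POLE2 kept a negative log2 fold change.

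**Figure D1:**
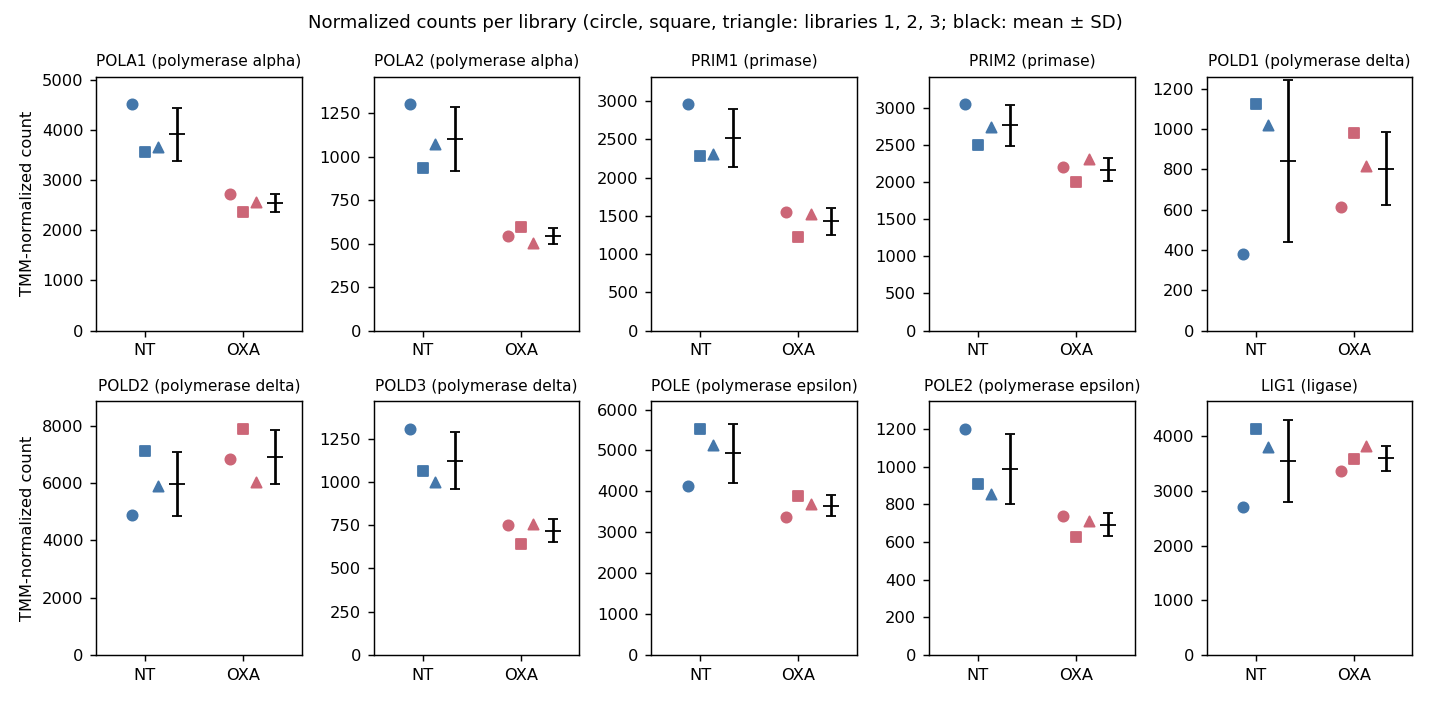
TMM-normalized counts (y axis, from 0) of the 10 genes in the NT and OXA libraries (x axis), with the library number shown by the symbol and mean ± SD in black (n = 3). The OXA libraries lie below the NT libraries in POLA1, POLA2, PRIM1, PRIM2, POLD3, POLE and POLE2, and the groups overlap in POLD1, POLD2 and LIG1.

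POLA1, on chromosome X at 24693873 to 24996986 (GRCh38, plus strand), encodes the catalytic subunit of polymerase alpha. It had 4514, 3561 and 3668 normalized counts in NT libraries 1, 2 and 3 and 2716, 2356 and 2557 in the OXA libraries of the same numbers. Every OXA library was lower than every NT library, and the OXA mean was 65.0% of the NT mean (log2 fold change -0.62 with an SE of 0.12, adjusted p = 0.0273 by edgeR).

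POLA2, on chromosome 11 at 65261913 to 65305959 (plus strand), encodes the B subunit, which has no catalytic activity. It had 1301, 937 and 1070 normalized counts in NT and 542, 594 and 503 in OXA. The groups did not overlap, and its estimate was the lowest of the 10 genes (log2 fold change -1.01 with an SE of 0.15, adjusted p = 0.0118 by edgeR). POLA2 shares 2012 of its 12006 exonic bases, 16.8%, with the protein-coding gene ENSG00000285816 on the same strand, so the reads of these genes could be split between them by the counting. ENSG00000285816 had 755, 977 and 994 normalized counts in NT and 783, 580 and 960 in OXA, which overlapped (log2 fold change -0.23, adjusted p = 0.558 by edgeR). Summed over both genes, the counts were 2057, 1914 and 2064 in NT and 1325, 1174 and 1462 in OXA. The sum was lower in every OXA library, but by a smaller amount than POLA2 alone (log2 fold change -0.61 with an SE of 0.11, adjusted p = 0.0236 by edgeR). With the factors of the deposited normalized signal as offsets the call was lost (log2 fold change -0.85, adjusted p = 0.164 by edgeR). The size of the POLA2 fall is therefore uncertain, and its direction was the same in each of these fits.

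**Figure D2:**
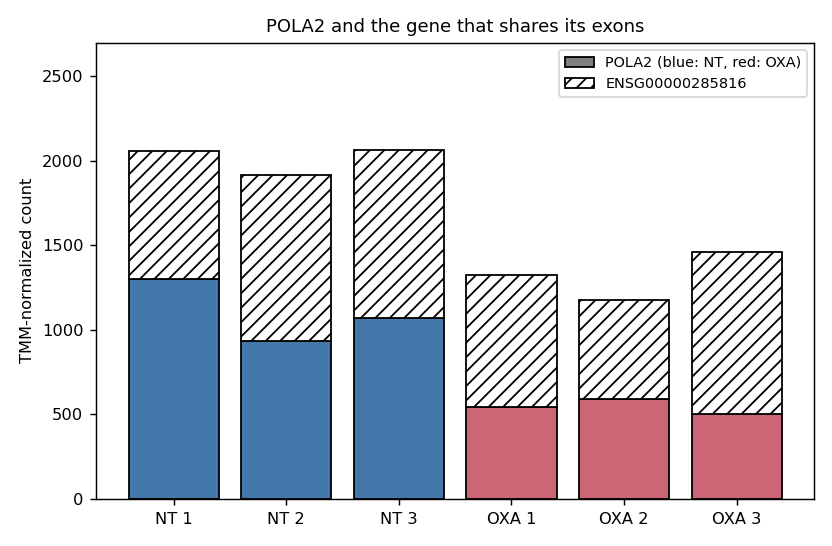
TMM-normalized counts (y axis, from 0) of POLA2 (filled) and of ENSG00000285816 (hatched), stacked, in each of the 6 libraries (x axis). The stacked totals lie between 1914 and 2064 in NT and between 1174 and 1462 in OXA.

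PRIM1, on chromosome 12 at 56730438 to 56752374 (minus strand), encodes the catalytic subunit of primase, which makes the RNA primer. It had 2959, 2284 and 2308 normalized counts in NT and 1546, 1223 and 1519 in OXA. The OXA mean was 56.8% of the NT mean, with no overlap (log2 fold change -0.82 with an SE of 0.14, adjusted p = 0.0224 by edgeR). PRIM1 shares exonic bases with NACA and ENSG00000285625 on its strand. Summed with the few counts of ENSG00000285625, it had a log2 fold change of -0.81.

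PRIM2, on chromosome 6 at 57314805 to 57646850 (plus strand), encodes the large subunit of primase, which carries an iron-sulfur cluster. It had 3044, 2498 and 2739 normalized counts in NT and 2199, 1992 and 2308 in OXA. The groups did not overlap, and the difference missed the threshold (log2 fold change -0.35 with an SE of 0.11, adjusted p = 0.107 by edgeR), but passed it with the replicate block (adjusted p = 0.0168 by edgeR). PRIM2 has an unprocessed pseudogene copy on the same chromosome, PRIM2BP, whose counts were not analysed here, so reads of PRIM2 may be divided between the copies and its values are uncertain.

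The subunits of the polymerase alpha and primase complex were also compared with each other within each library. These ratios are of raw counts and are not scaled to transcript length, so they do not say which gene has the higher level. On the log2 scale, the raw count of POLA2 over that of POLA1 was -1.79, -1.93 and -1.78 in NT. In OXA it was -2.32, -1.99 and -2.35. PRIM1 over POLA1 moved from -0.64 ± 0.030 (SD, n = 3) to -0.84 ± 0.099, and PRIM2 over POLA1 from -0.50 ± 0.074 to -0.23 ± 0.079. In these 3 ratios the groups did not overlap, and the exact two-sided permutation p was 0.1 for each, the smallest that 3 against 3 libraries can give (0.2 after adjustment over the 6 ratios compared). The POLA2 ratio carries the uncertainty of its shared exons, and the PRIM2 ratio that of its pseudogene copy. The PRIM1 ratio carries that of the 139 exonic bases shared with NACA, whose counts were not summed with those of PRIM1. The ratios within polymerase delta and polymerase epsilon (POLD2 and POLD3 over POLD1, POLE2 over POLE) overlapped between the groups, with exact permutation p-values of 0.6, 0.4 and 0.8. These permutations took no account of the library numbers. POLD3 over POLD1 was 1.78, -0.080 and -0.030 in NT and 0.29, -0.61 and -0.10 in OXA. It was thus lower in OXA in each of the 3 same-numbered pairs, whereas the other 2 of these ratios moved in both directions. No test was made within the pairs. The transcripts of POLD3 and POLD1 hold 42.6% and 64.8% GC, and the log2 ratios of NT library 1 to the other NT libraries were 0.34 and -1.49. The first NT value carries that shift, and its share in the pattern was not tested.

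POLD1, on chromosome 19 at 50384204 to 50418018 (plus strand), encodes the catalytic and proofreading subunit of polymerase delta. It had 381, 1122 and 1021 normalized counts in NT and 615, 978 and 816 in OXA. Its lowest value was in NT library 1, the groups overlapped, and the 95% interval of the log2 fold change ran from -0.93 to 0.79 around -0.068 (adjusted p = 0.939 by edgeR). Its transcript, at 64.8% GC, was the richest in GC of the 10, and NT library 1 lay 1.49 below the other NT libraries on the log2 scale (log2 ratio -1.49). Without that library the log2 fold change was -0.42 (adjusted p = 0.166 by edgeR), and after removal of the trends on GC and length within each library it was -0.18 (adjusted p = 0.347 by edgeR).

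POLD2, on chromosome 7 at 44114631 to 44124358 (minus strand), encodes the subunit that links the catalytic subunit to the rest of polymerase delta. It had 4874, 7122 and 5894 normalized counts in NT and 6833, 7900 and 6027 in OXA, values that overlapped (log2 fold change 0.21, 95% interval -0.15 to 0.58, adjusted p = 0.489 by edgeR). Without NT library 1 the estimate was 0.089, and with the trends removed it was 0.0100. POLD3, on chromosome 11 at 74493851 to 74669117 (plus strand), encodes a subunit that binds PCNA and is also shared with the translesion polymerase zeta. It had 1307, 1062 and 1000 normalized counts in NT and 753, 641 and 759 in OXA. The groups were apart, with an OXA mean at 63.9% of the NT mean (log2 fold change -0.65 with an SE of 0.14, adjusted p = 0.0423 by edgeR). The smallest subunit, POLD4, is not among the 10 genes. It was expressed at a low level, with 44, 183 and 161 normalized counts in NT and 164, 249 and 236 in OXA (log2 fold change 0.74 with an SE of 0.46, adjusted p = 0.399 by edgeR), and it shares 21.3% of its exonic bases with ENSG00000256514. Its lowest value was in NT library 1, without which the estimate was 0.34 (adjusted p = 0.356 by edgeR). With both the block and the trends removed POLD4 was called higher (0.67, adjusted p = 0.0167 by edgeR), beside 3214 of 13727 genes.

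POLE, on chromosome 12 at 132623753 to 132687376 (minus strand), encodes the catalytic and proofreading subunit of polymerase epsilon. It had 4127, 5533 and 5132 normalized counts in NT and 3377, 3889 and 3690 in OXA, with no overlap (log2 fold change -0.43 with an SE of 0.12, adjusted p = 0.0916 by edgeR). It was called lower with the replicate block (adjusted p = 0.00929 by edgeR) and without NT library 1, where the estimate was -0.55 (adjusted p = 0.0102 by edgeR). POLE2, on chromosome 14 at 49643555 to 49688422 (minus strand), encodes the second subunit of this polymerase. It had 1203, 909 and 854 normalized counts in NT and 739, 627 and 714 in OXA, also apart (log2 fold change -0.51, SE 0.15, adjusted p = 0.103 by edgeR and 0.0230 with the block). The histone-fold subunits POLE3 and POLE4, which are not among the 10, had log2 fold changes of -0.16 and 0.11 and overlapping groups. Their edgeR adjusted p-values were 0.471 and 0.808. With both the block and the trends removed POLE3 was called lower (-0.15, adjusted p = 0.00857 by edgeR), beside 22.1% of all genes.

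LIG1, on chromosome 19 at 48115445 to 48170603 (minus strand), had 2711, 4142 and 3809 normalized counts in NT and 3376, 3590 and 3825 in OXA. The OXA libraries lay within the range of the NT libraries, and the log2 fold change was 0.017 with a 95% interval from -0.34 to 0.38 (adjusted p = 0.965 by edgeR). As for POLD1, the lowest of the 6 values was in NT library 1, and the estimate without that library was -0.14 (adjusted p = 0.378 by edgeR).

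**Figure D3:**
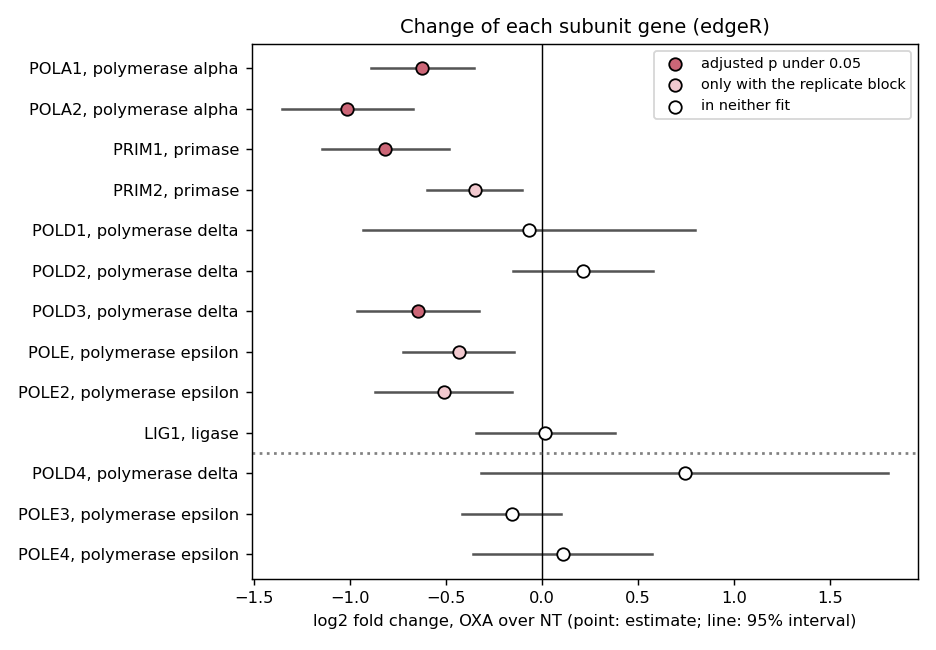
Log2 fold change of OXA over NT (x axis) with its 95% interval for the 10 genes (above the dotted line) and for POLD4, POLE3 and POLE4 (y axis), from edgeR. Filled red points mark the 4 genes with an adjusted p under 0.05, pink points PRIM2, POLE and POLE2, which passed with the replicate block, and open points the genes called in neither fit.

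NT library 1 lay above the other NT libraries in 6 of the 10 genes and below them in 4. Its log2 ratio to the other NT libraries was between 0.22 and 0.45 in POLA1, POLA2, PRIM1, PRIM2, POLD3 and POLE2, and it was -0.37 in POLE, -0.42 in POLD2, -0.55 in LIG1 and -1.49 in POLD1. The transcripts of the first 6 held 39.6% to 53.7% GC and those of the other 4 held 56.4% to 64.8%. Among all genes tested, 3.20% of those with up to 40% GC were called lower, 0.98% of those between 55% and 60% and 0.14% of those over 60%. With the trends on GC content and transcript length removed, POLA1, POLA2, PRIM1, PRIM2, POLD3, POLE and POLE2 were called lower, the same 7 genes as with the block, beside 11% of all genes in that fit. With the block as well, the same 7 were lower, beside 22.1% of all genes.

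**Figure D4:**
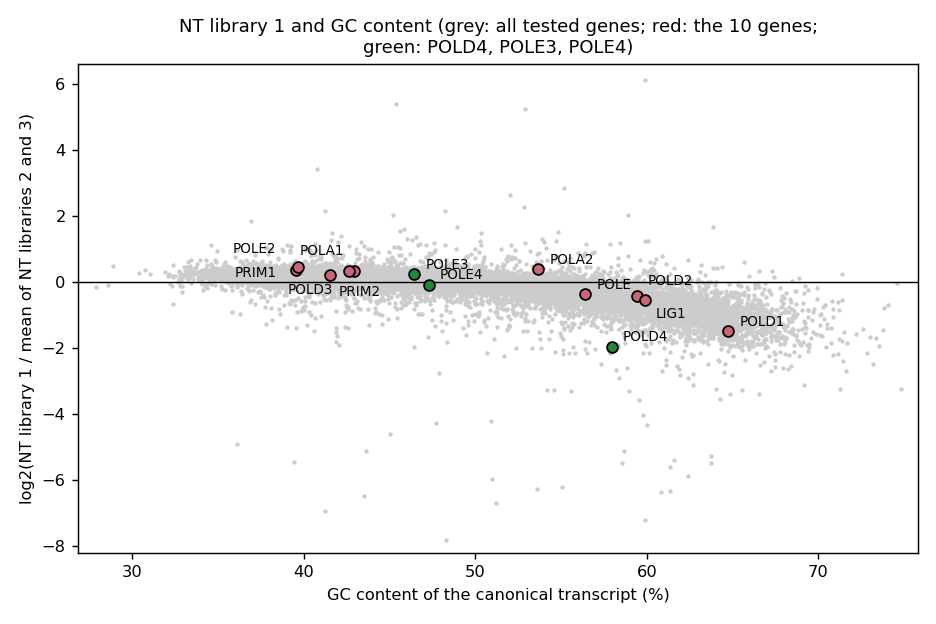
GC content of the canonical transcript in % (x axis) against the log2 ratio of NT library 1 to the mean of NT libraries 2 and 3 (y axis), with all tested genes in grey, the 10 genes in red and POLD4, POLE3 and POLE4 in green. Genes above 55% GC lie mostly below 0, POLD1 at -1.49 and POLD4 at -1.97 among them.

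Levels of different genes were compared as TMM-normalized CPM per kb of the canonical transcript. In NT, POLD2 had the highest of these levels at 103 ± 19.4 (SD, n = 3), followed by PRIM1 at 49.2 ± 7.48, PRIM2 at 33.3 ± 3.30, LIG1 at 31.6 ± 6.66, POLA1 at 19.8 ± 2.64, POLE at 17.5 ± 2.57, POLE2 at 16.2 ± 3.08, POLA2 at 8.65 ± 1.44, POLD3 at 8.24 ± 1.19 and POLD1 at 6.81 ± 3.25. The libraries of POLD2 lay above those of every other gene of the set. The neighbours PRIM2 and LIG1, POLA1 and POLE, POLE and POLE2, POLA2 and POLD3, and POLD3 and POLD1 overlapped. In OXA, LIG1 at 32 ± 2.00 stood next to POLD2 at 120 ± 16.2 and overlapped with PRIM1 at 27.9 ± 3.50, and POLA2 at 4.28 ± 0.361 was the lowest of the 10. In NT the mRNA of PRIM1 was above that of LIG1 in every library, and in OXA their libraries overlapped.

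The window from 250 bases before to 50 bases after the RefSeq transcription start (GRCh38.p14) was found for 9 of the 10 genes, all but POLD3, and searched on both strands. Words bound by E2F factors (TTTCCCGC, TTTGGCGC, TTTCGCGC or TTTGCCGC) lay in 5 of the 9, POLA1, POLA2, POLE, POLE2 and LIG1, and in 3.31% of 35116 such windows. The cell-cycle homology region words TTTGAA and TTCGAA lay in 0 of the 9 and in 16.4% of all windows. CCAAT lay in 4 of the 9 and 34.6%, and the GC box GGGCGG in 6 of the 9 and 45%. The windows of the 9 held 53% to 74.7% GC. All windows together were not matched to them for GC content, so these shares are a description and not a like comparison. The 150 bases before the start are printed 5′ to 3′ on the strand of the gene to set POLA1, POLA2 and POLE, whose OXA libraries lay below NT and which hold an E2F word, beside LIG1, which holds such a word and had overlapping groups, and beside PRIM1 and POLD1, which hold none. Capitals mark the E2F words.
POLA1 (chrX:24693768-24693917, plus strand): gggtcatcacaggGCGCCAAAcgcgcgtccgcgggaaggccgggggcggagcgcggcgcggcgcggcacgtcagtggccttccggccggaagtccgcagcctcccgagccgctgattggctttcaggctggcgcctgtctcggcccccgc
POLA2 (chr11:65261812-65261961, plus strand): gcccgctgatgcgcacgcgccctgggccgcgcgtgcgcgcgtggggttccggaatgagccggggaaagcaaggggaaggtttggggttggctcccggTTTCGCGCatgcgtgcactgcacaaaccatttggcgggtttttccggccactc
POLE (chr12:132687343-132687492, minus strand): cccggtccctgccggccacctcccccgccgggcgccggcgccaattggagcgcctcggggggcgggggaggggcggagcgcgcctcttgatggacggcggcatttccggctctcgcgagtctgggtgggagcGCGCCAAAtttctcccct
LIG1 (chr19:48170345-48170494, minus strand): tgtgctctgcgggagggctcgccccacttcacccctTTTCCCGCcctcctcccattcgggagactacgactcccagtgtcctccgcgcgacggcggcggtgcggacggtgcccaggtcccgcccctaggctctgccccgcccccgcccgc
PRIM1 (chr12:56752324-56752473, minus strand): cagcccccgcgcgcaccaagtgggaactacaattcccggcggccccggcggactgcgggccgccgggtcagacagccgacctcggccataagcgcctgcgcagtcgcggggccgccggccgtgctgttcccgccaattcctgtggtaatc
POLD1 (chr19:50384173-50384322, plus strand): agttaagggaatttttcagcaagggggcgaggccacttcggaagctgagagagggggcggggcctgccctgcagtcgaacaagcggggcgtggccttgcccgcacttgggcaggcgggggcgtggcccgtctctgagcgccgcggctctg
The word was TTTGGCGC on the opposite strand in POLA1 and POLE, TTTCGCGC on the strand of the gene in POLA2 and TTTCCCGC on that strand in LIG1. It ended 130, 11, 46 and 107 bases before the start in POLA1, POLE, POLA2 and LIG1. A word was thus present in POLA1 and POLA2, which fell, and in LIG1, for which no fall was called. It was also present in POLE, which missed the threshold in the edgeR fit of all 6 libraries without the block. No exact match was present in PRIM1, which fell. Of the 6 genes with a window that were called lower with the block, 4 held a word, and PRIM1 and PRIM2 did not. These are matches of letters and not measurements of binding.

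The 16 fork partners examined act beside these enzymes. At an edgeR adjusted p under 0.05, 4 of them were called lower in OXA and 0 higher, against 2.29% and 2.78% of all genes, and their median log2 fold change was -0.23. FEN1, the nuclease that trims the flaps of Okazaki fragments, had 8138, 8326 and 8468 normalized counts in NT and 4602, 4397 and 4941 in OXA (log2 fold change -0.84 with an SE of 0.083, adjusted p = 0.00345 by edgeR). It was called in all 6 fits that left out a library. CLSPN, which encodes the checkpoint mediator claspin, had a log2 fold change of -0.99 (adjusted p = 0.00975 by edgeR), MCM10, a factor that helps to activate the helicase and binds polymerase alpha, one of -0.75 (adjusted p = 0.0153 by edgeR), and WDHD1, the human And-1 protein that tethers polymerase alpha to the fork, one of -0.57 (adjusted p = 0.0395 by edgeR). PCNA, the clamp and also a target of p53, overlapped between the groups (log2 fold change -0.045, adjusted p = 0.830 by edgeR). CTC1, STN1 and TEN1, which recruit polymerase alpha and primase to telomeres, had log2 fold changes between 0.076 and 0.21. None was called in this fit. With both the block and the trends removed CTC1 and STN1 were called higher (adjusted p = 0.00673 and 0.0473 by edgeR), beside 3214 of 13727 genes. TEN1 had 92, 299 and 261 normalized counts in NT, and without NT library 1 its estimate turned from 0.12 to -0.24. With the replicate block, 7 of the 16 were called lower, DNA2, RNASEH2B and TIMELESS being added, and POLDIP2 was called higher, against 10.9% and 12.1% of all genes. Without OXA library 1, 2 or 3, the count called lower was 1, 1 and 2, beside 19, 32 and 67 of all genes tested. The MCM10 call was lost in each of these 3 fits and with the factors of the deposited signal (adjusted p = 0.0817 by edgeR), the CLSPN call without OXA library 1 or 2, and the WDHD1 call in each fit without a library other than NT library 1.

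Among the other DNA polymerases and ligases, 16 of 17 were tested, DNTT being too low, and the median log2 fold change was 0.085. POLH, the translesion polymerase eta and a known target of p53, had 1107, 979 and 919 normalized counts in NT and 2324, 2035 and 1958 in OXA (log2 fold change 1.07 with an SE of 0.12, adjusted p = 0.00451 by edgeR). It was the only gene of the 16 called higher in this fit, and it was called in all 6 fits that left out a library. POLQ, the polymerase of theta-mediated end joining, was the only one called lower, with a log2 fold change of -0.55 (adjusted p = 0.0391 by edgeR). Of all genes tested, 2.29% were called lower and 2.78% higher in this fit. With the block, REV1 and PRIMPOL were also lower and REV3L, the catalytic subunit of polymerase zeta, also higher. The block fit called 10.9% of all genes lower and 12.1% higher. PRIMPOL, which primes anew beyond a stalled fork, had a log2 fold change of -0.73 (adjusted p = 0.0599 by edgeR, and 0.0204 with the block). The POLQ call was lost in each fit that left out a library other than NT library 1 and with the factors of the deposited signal (adjusted p = 0.0919 by edgeR). Without NT library 1 the 2 genes POLH and REV3L were called higher, beside 623 of 13888 genes. The other ligases LIG3 and LIG4 had log2 fold changes of -0.028 and 0.19, with edgeR adjusted p-values of 0.899 and 0.483. LIG4 was called higher with the trends removed (adjusted p = 0.0330 by edgeR), beside 1571 of 13727 genes. It was also called higher with the block as well (adjusted p = 0.00464 by edgeR), beside 3214 genes. The lists were written from general knowledge, with earlier results of these data known, and no test compared 1 list with another.

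**Figure D5:**
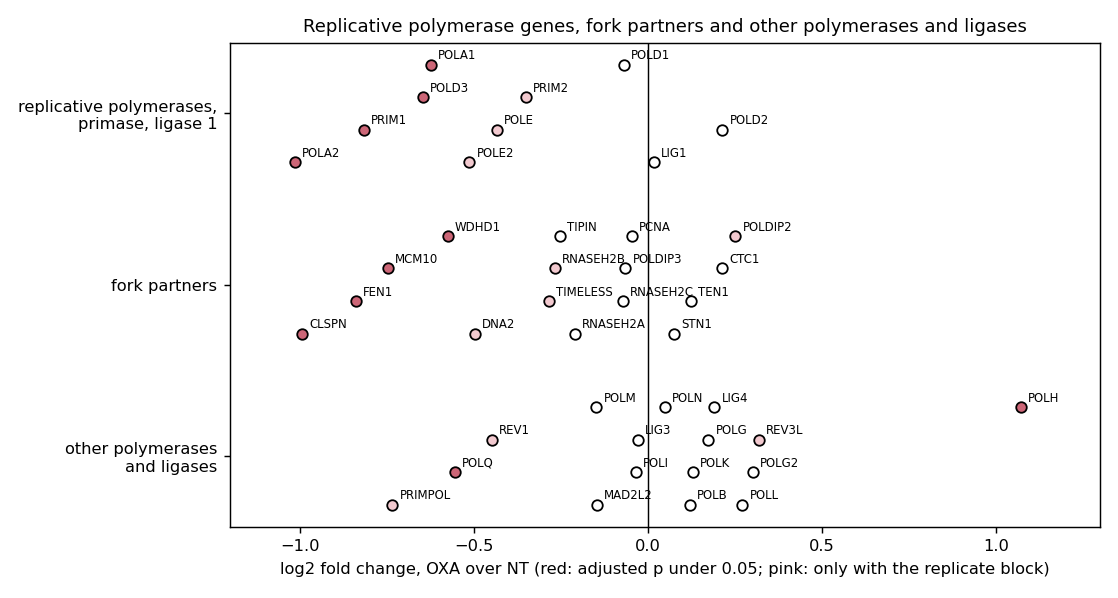
Log2 fold change of OXA over NT (x axis) for each tested gene of 3 lists (y axis, spread vertically only for legibility), red where the edgeR adjusted p is under 0.05 and pink where only the fit with the replicate block passes. The medians are -0.47 for the replicative polymerases, primase and ligase 1, -0.23 for the fork partners and 0.085 for the other polymerases and ligases, where POLH lies at 1.07.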

How the data were processed

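The authors mapped paired reads of 100 nt to GRCh38 with STAR 2.7.5b, and the submitters' processing notes also name Trimmomatic 0.32, RSEM 1.3.3 and DESeq2 2.13. The authors deposited expected counts per gene as whole numbers, used unchanged, and a normalized signal, the count times a factor that differs between genes and libraries. The annotation and strand setting of the counting are not given in the sources used here, although the kit keeps strand. Genes on opposite strands that overlap (PRIM1 with HSD17B6, POLE3 with C9orf43) are therefore uncertain.

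Low counts were removed by filterByExpr of edgeR 4.0.16. A gene was kept if at least 3 libraries reached the CPM that equals 10 counts in a library of median size, with 15 counts in total. TMM factors were applied, and the quasi-likelihood test of edgeR was run in R 4.3.3. P-values were adjusted after Benjamini and Hochberg over 13727 genes with a threshold of 0.05. DESeq2 1.42.0 and limma 3.58.1 served as alternatives. A normalized count is the count divided by the effective library size and multiplied by the mean of those sizes. The standard error (SE) of a log2 fold change follows from the estimate and its F statistic. Positions, exons, lengths and GC content came from GENCODE on GRCh38. On simulated counts, 156 of 197 changed genes were called, 0 in the wrong direction, and 12 of 168 calls were unchanged genes. The planted changes were larger than the estimates of all 10 genes but POLA2. The simulated libraries held no GC shift and no shared deviation of same-numbered libraries. These rates therefore do not carry over to the smaller changes and the libraries of this report.

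Same-numbered libraries deviated together from their group means (correlations 0.55, 0.54 and 0.31 across genes, limit 0.1). These numbers are given in the labels, which do not say what they stand for. Alternatives were other normalizations, filters and tools, a replicate block, and leaving out libraries in turn. Removal of GC and length trends, with and without the block, and the summing of overlapping genes were chosen after seeing the data. The 10 genes and the lists were chosen with earlier results of these data known, and the genes named are those of the lists. Counting error is a lower limit, since PCR duplicates were not marked.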

Additional observations from a re-analysis of the deposited data

How the results depend on the processing

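The authors' factors, used as offsets, took the call from POLA2 (log2 fold change -0.85, adjusted p = 0.164 by edgeR), which left 3 of the 10 genes lower, and DESeq2 called 6. The count of 10-gene calls was 7 with the replicate block, 7 with GC and length trends removed and 7 with both, and 0 to 5 with a library left out. Over all genes 696 were called, against 441 with the authors' factors, 1175 by DESeq2 and 85 to 1194 with a library left out. The count was 3157 with the block, 3076 with the trends removed and 6252 with both. Called lower were 200 of 13727 genes with the authors' factors, 493 under upper-quartile normalization and 571 of 13488 by DESeq2. With the block, the trends removed and both, 10.9%, 11% and 22.1% were lower, and 19 to 571 genes with a library left out. Called higher were 1664, 1571 and 3214 genes with the block, the trends removed and both, and 66 to 623 with a library left out. No list count was tested against these. Fork partners called lower were 3 with the authors' factors, 5 by DESeq2, 7 with the block, 7 with the trends removed, 10 with both and 1 to 4 with a library left out, and those called higher were 1 with the block and 3 with both. Other polymerases and ligases called lower were 3 under upper-quartile normalization, 0 with the authors' factors, 3 by DESeq2, 3 with the block, 4 with the trends removed, 5 with both and 0 to 1 with a library left out, and those called higher were 2, 3 and 5 with the block, the trends removed and both, and 1 to 2 with a library left out. Beyond the calls named with it in the report, the block changed none.

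Among the genes printed with a log2 fold change, the sign turned in POLD1, LIG1, POLE4, PCNA, TEN1 and LIG3. POLD1 was 0.051 by limma-voom, 0.030 with the block and -0.42 to 0.17 with a library left out. LIG1 was -0.021 under upper-quartile normalization, -0.028 with the authors' factors, -0.0082 without a filter, -0.13 with the trends removed, -0.13 with both, and -0.14 to 0.11 with a library left out. POLE4 was -0.14 to 0.21, PCNA -0.12 to 0.023, TEN1 -0.24 to 0.40 and LIG3 -0.11 to 0.019 with a library left out. TEN1 was -0.077 with the trends removed and -0.065 with both. LIG3 was 0.10 with the authors' factors, 0.0037 with the trends removed and 0.0045 with both. The causes were not tested.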

Other observations

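The normalized signal that the authors deposited differs from the raw count by a factor that is specific to the gene as well as to the library. For POLA2 this factor ran from 0.595 in NT library 3 to 1.303 in OXA library 2, a ratio of 2.19 between its largest and smallest value. The median of this ratio over 13021 genes with at least 10 counts in every library was 1.27, and its 95th percentile was 1.85. In the deposited signal POLA2 stood at 1565, 892 and 698 in NT and 539, 710 and 502 in OXA, so the groups overlapped in that signal while they did not overlap in counts scaled by library alone. LIG1 came next among the 10 genes, with a ratio of 1.44, and its groups overlapped on both scales. For the other 8 genes the ratio lay between 1.15 and 1.37, and PRIM1, with a ratio of 1.25, was apart between the groups on both scales. POLA2 is also the gene of the 10 that shares most exonic bases with another counted gene, and whether the factor and the shared bases are related was not tested.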
